A study of Bos taurus with 8 samples.

Results

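The genes described here control cyclic nucleotides during the meiotic arrest of the oocyte. They are 10 genes chosen by symbol, and all 10 were found among the 26804 genes of the table, each in a single row. They cover the receptors GPR3 and GPR12, the adenylyl cyclases ADCY3 and ADCY9, the phosphodiesterase PDE3A, the protein kinase A subunits PRKACA, PRKACB and PRKAR1A, the natriuretic peptide receptor NPR2 and its ligand NPPC. Transcript levels were measured by RNA sequencing of denuded oocytes at the germinal vesicle stage, in 4 summer libraries (A, B, C and E) and in 4 of winter (labelled A, B, D and E). Donors were multiparous, non-lactating beef cows, labelled Angus and described in the study's methods as Bos taurus crossbreeds. In both seasons the cows received an analog of gonadotropin-releasing hormone, an intravaginal progesterone device and follicle-stimulating hormone before ultrasound-guided aspiration. Aspiration was in August for summer and in January (labels) or February (methods) for winter. No other treatment separated the groups, ages were not given in the sources used here, and each library held the RNA of oocytes from a pair of cows. Oocytes came from cumulus complexes of the better 2 grades, whose proportions differed by season, and were stripped of cumulus cells with hyaluronidase and vortexing. The same cows, kept together, were aspirated once in each season, and the methods speak of corresponding summer and winter replicates, but whether a letter marks the same cows is not given in the sources used here. Each season was a single collection, so season cannot be told apart from collection session, and the p-values measure the spread between pools of the same herd.

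A fully grown mammalian oocyte is held in meiotic prophase by a high level of cyclic AMP. Work in rodents has shown that the oocyte makes this cyclic AMP itself, through constitutively active receptors (GPR3 in mice, GPR12 in rats) that act on adenylyl cyclase through the stimulatory G protein. Cyclic AMP activates protein kinase A, which keeps the cyclin-dependent kinase CDK1 inactive. PDE3A is the main oocyte enzyme that breaks down cyclic AMP, and it is inhibited by cyclic GMP. In mice this cyclic GMP comes from the surrounding follicle cells, where mural granulosa cells release the peptide encoded by NPPC and cumulus cells carry its guanylyl cyclase receptor NPR2, and it reaches the oocyte through gap junctions.

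Values are given as TPM, a share of a library's transcripts that is scaled by transcript length and sums to 1000000 in every library, so levels of different genes can be compared. TPM keeps no record of depth, and the number of reads behind a value is unknown. A difference is the summer mean less the winter mean of log2(TPM + 1). This scale understates changes of genes with low TPM, and positive values are higher in summer. A gene was tested if it was expressed in all 4 libraries of at least one season (zFPKM, a standardised log2 TPM, above -3), and 13379 genes were. A called gene had an adjusted p under 0.05 in limma (Benjamini-Hochberg over all genes tested) and at least a 2-fold difference. Between 14477 and 16448 genes were above 0 in a library.

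Oocyte markers were present in every library and stood higher in summer. Summed TPM of 23 oocyte markers, led by ACCSL and the zona pellucida gene ZP3, lay between 1.99% and 2.33% in summer and between 0.631% and 1.45% in winter. An exact permutation of the libraries (two-sided) gave p = 0.0286, which is the lowest value 4 against 4 can reach (adjusted over 7 marker lists, p = 0.10). Of these 23 genes, 20 were called higher and none lower, with a median difference of 1.17. Markers of cumulus and granulosa cells, led by INHA and SERPINE2, held 0.854% to 1.21% of TPM in summer and 0.979% to 3.88% in winter, where winter E stood far above the others at 0.979% to 1.14%. Theca and stroma markers, led by COL1A1 and LUM, held 0.0215% to 0.0319% in summer and 0.0482% to 0.247% in winter (exact permutation p = 0.0286; adjusted over the 7 marker lists, p = 0.10). Endothelial, leukocyte, erythrocyte and epithelial shares overlapped between the seasons. The epithelial share was highest in winter A, at 0.356% against 0.0350% to 0.109% in the other winter libraries. In winter A the epithelial marker OVGP1 stood at 330 TPM, against at most 0.669 TPM in any other library. Whether this bears on other values of winter A was not tested. In such pooled samples fewer cells of a type and less RNA per cell cannot be told apart.

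Differences of these genes went both ways between the seasons, and PRKACA, the alpha catalytic subunit of protein kinase A, was the one with an adjusted p under 0.05. Its adjusted p was 0.136 (limma) when the letter entered as a replicate block. The differences ranged from -0.53 for PRKACA to 0.80 for GPR12. Of the 10 genes, 9 passed the expression limit in both seasons, and NPPC did not pass in either. None of the 9 was called, against 9.57% of all genes tested (4.4% higher and 5.17% lower). Without the 2-fold limit 1 of 9 had an adjusted p under 0.05, PRKACA, which was lower in summer, against 26.8% of all genes tested (14.9% higher and 11.9% lower). At an unadjusted p under 0.05 (limma) the count was 4, with GPR3 and GPR12 higher and PRKACA and PRKACB lower. The share of all genes at this looser limit was not counted, so these 4 are not read as a result. The median difference of the 9 genes was 0.02, and that of all tested genes was -0.03. Summer and winter values did not overlap for 2 of the 9, PRKACA and PRKACB, both lower in summer, while 29.5% of all genes tested had no overlap (15.4% higher and 14.1% lower).

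**Figure D1:**
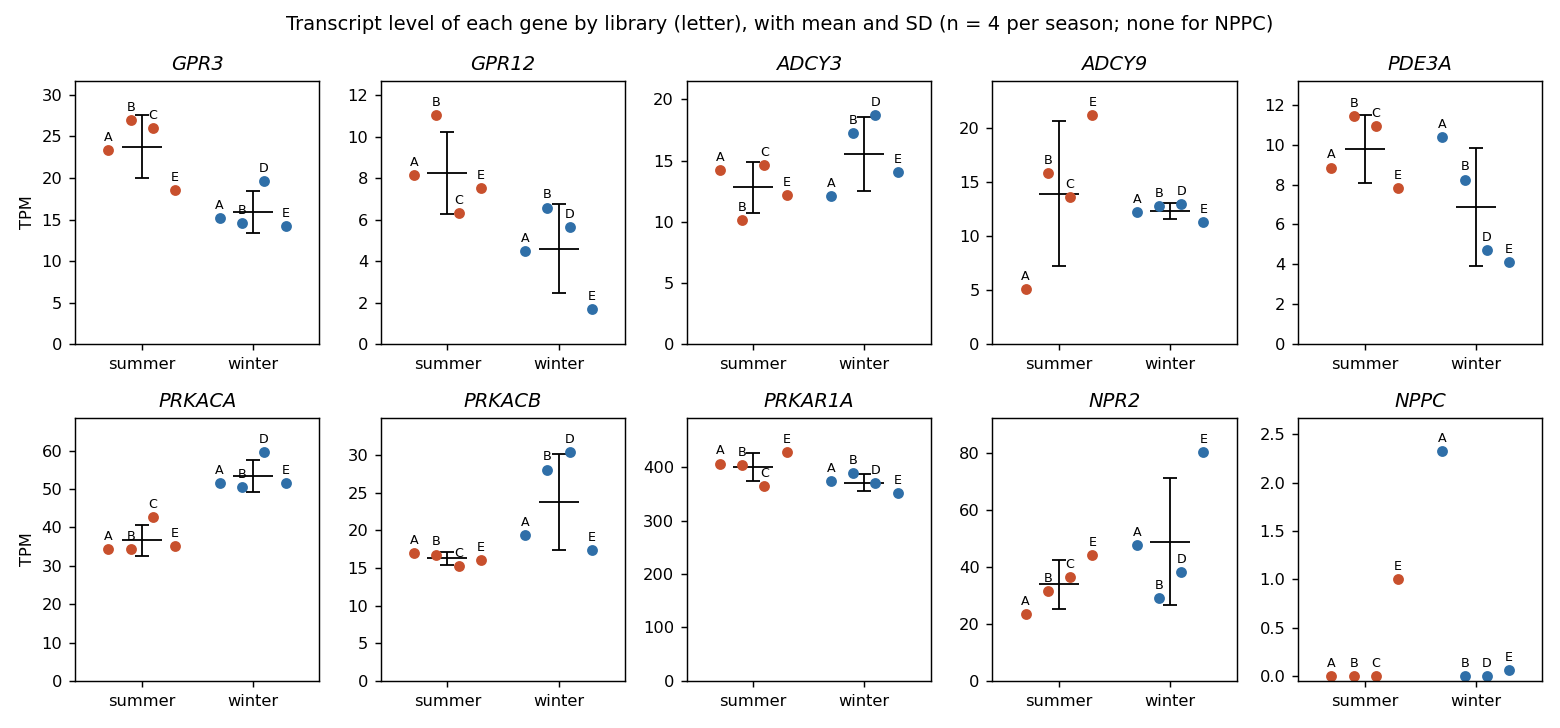
TPM of each of the 10 genes (y axis, from 0) in the 4 summer and 4 winter libraries; points are libraries with their letter, lines and bars are the mean and SD (n = 4), left out for NPPC. PRKACA and PRKACB are the genes whose seasons do not overlap, and NPPC is at 0 in 5 of the 8 libraries.

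The genes differed widely in level. PRKAR1A was by far the most abundant, with a mean of 386 TPM over the 8 libraries, and it lay above every other one of these genes in 8 of 8 libraries. PRKACA (45.0 TPM) and NPR2 (41.5 TPM) followed, and their order was not fixed, since PRKACA was the higher in 6 of 8 libraries. NPR2 was above PRKACB (20.0 TPM) in 8 of 8. PRKACB and GPR3 (19.8 TPM) had nearly equal means but changed places with the season. GPR3 was the higher in all 4 summer libraries and PRKACB in all 4 winter libraries, an exchange that was seen in the values and not tested. ADCY3 (14.2 TPM) and ADCY9 (13.1 TPM) could not be ordered, with ADCY3 above in 5 of 8 libraries. ADCY9 was above PDE3A (8.32 TPM) in 7 of 8 libraries, and PDE3A above GPR12 (6.44 TPM) in 7 of 8. NPPC was the lowest in every library.

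GPR3 is the receptor that keeps cyclic AMP high in mouse oocytes by signaling without a ligand. It was listed at 23.4 (A), 27.0 (B), 26.1 (C) and 18.5 (E) TPM in summer and at 15.2 (A), 14.6 (B), 19.6 (D) and 14.2 (E) TPM in winter. Only summer E and winter D overlapped, and the other summer libraries lay above all winter libraries. The mean was 23.7 ± 3.79 TPM in summer and 15.9 ± 2.50 TPM in winter (SD, n = 4 each). The difference was 0.55 (SE 0.19, 95% interval 0.12 to 0.97) and missed the threshold (adjusted p = 0.0561, limma). With a library left out it ranged from 0.48 to 0.66, and the adjusted p was under 0.05 in 1 of 8 fits (limma). That fit was the one without summer E (0.66, adjusted p = 0.0478, limma), and without summer B the adjusted p was 0.153 (limma). With the letter as a replicate block it was 0.179 (limma).

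GPR12, the related receptor that takes this role in rat oocytes, was less abundant. Its levels were 8.15 (A), 11.0 (B), 6.33 (C) and 7.52 (E) TPM in summer and 4.51 (A), 6.59 (B), 5.66 (D) and 1.69 (E) TPM in winter. Winter E was the lowest and winter B overlapped with summer C. The difference was 0.80 (SE 0.34, interval 0.04 to 1.56, adjusted p = 0.103, limma), and 0.48 without winter E (the lowest of the values with a library left out). GPR6, the third receptor of this family, was listed at 0 in all libraries. GPR3 made up 74.2 ± 4.44% of the summed TPM of the 3 receptors in summer and 78.2 ± 8.46% in winter.

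Both receptors had smaller differences than the median of the oocyte markers. Winter E, with the lowest GPR12, also had the lowest share of oocyte markers (0.631%), and summer B, with the highest GPR12, had the highest share (2.33%). The part of the oocyte share in the GPR12 values was not tested beyond setting each library to its mean log2 level of oocyte markers. On that scale the median of all tested genes moved to -1.13, and GPR3 differed by -0.56 and GPR12 by -0.30. This setting shifts all genes of a library alike, so it leaves the distance of a gene from the median gene nearly as it was. With the cumulus and granulosa marker level as a covariate GPR12 differed by 0.11 (adjusted p = 0.907, limma). In the same fit GPR3 differed by 0.55 (adjusted p = 0.318, limma).

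**Figure D2:**
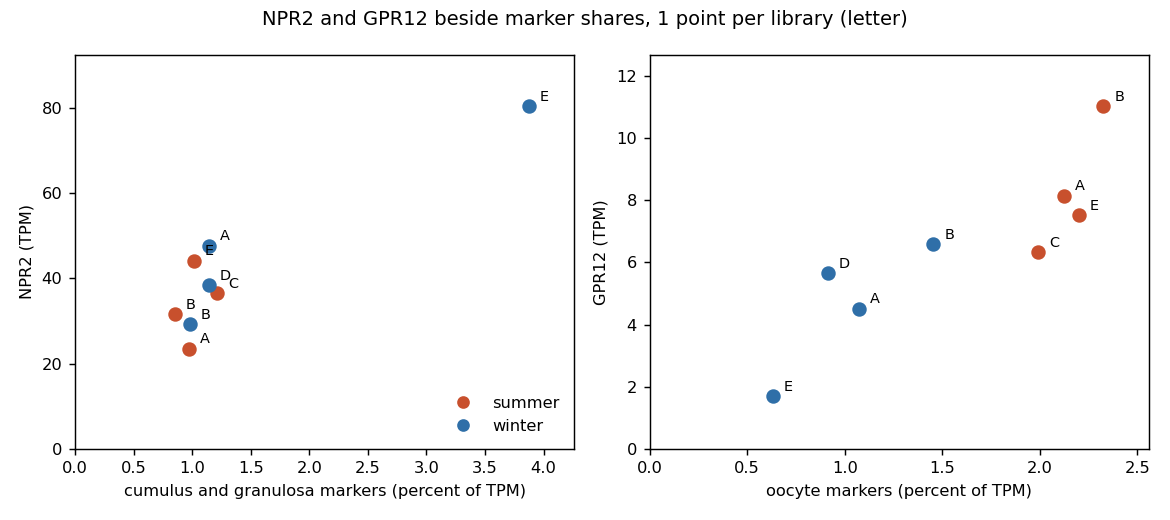
Left, NPR2 (TPM) against the share of TPM held by 22 cumulus and granulosa markers; right, GPR12 (TPM) against the share held by 23 oocyte markers; each point is 1 library with its letter. Winter E combines the highest NPR2 (80.5 TPM) with the highest granulosa share (3.88%), and the lowest GPR12 (1.69 TPM) with the lowest oocyte share (0.631%).

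Adenylyl cyclases make cyclic AMP from ATP. ADCY3, a form that contributes to meiotic arrest in rodent oocytes, was listed at 14.3 (A), 10.1 (B), 14.7 (C) and 12.2 (E) TPM in summer and at 12.1 (A), 17.2 (B), 18.7 (D) and 14.1 (E) TPM in winter. The seasons overlapped, and the difference was -0.25 (SE 0.21, interval -0.72 to 0.22, adjusted p = 0.387, limma). In RefSeq's annotation of the bovine genome (ARS-UCD2.0) ADCY3 overlaps the centromere gene CENPO, which had 94.7 ± 9.86 TPM in summer against 53.3 ± 11.7 TPM in winter. Reads of the overlapping part cannot be divided between them if strand was not used, so the ADCY3 values are uncertain to that extent.

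ADCY9, a widely expressed cyclase, showed its spread in summer. The gene was listed at 5.09 (A), 15.8 (B), 13.6 (C) and 21.2 (E) TPM in summer and at 12.2 (A), 12.8 (B), 13.0 (D) and 11.3 (E) TPM in winter. Summer A lay below all winter libraries, and the other summer libraries lay above them. The coefficient of variation was 48.1% in summer and 6.17% in winter. The difference was 0.02 (SE 0.35, adjusted p = 0.966, limma), and it was 0.41 without summer A. The related gene ADCY1 had its lowest value in the same library, at 4.31 TPM against 16.1 to 25.7 TPM in the other summer libraries. ADCY5, ADCY6 and ADCY7 were also lowest of summer there, while ADCY2 and ADCY3 were not. Low values in summer A were not particular to cyclases. PRKAR2A stood at 15.4 TPM there, against 33.3 to 39.7 TPM in the other summer libraries, and AKAP11 at 24.6 against 47.5 to 49.0 TPM.

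Neither ADCY3 nor ADCY9 was the leading cyclase. ADCY6 held the highest mean share of the summed TPM of 10 adenylyl cyclase genes, 28.0 ± 4.21% in summer and 38.3 ± 7.27% in winter, followed by ADCY1. ADCY3 held 16.2 ± 6.18% and 17.3 ± 3.95%, and ADCY9 15.8 ± 5.40% and 13.7 ± 1.26%. ADCY6 itself had 23.0 ± 3.75 TPM in summer against 34.8 ± 7.94 TPM in winter (difference -0.56, adjusted p = 0.0630, limma). None of 7 tested cyclase-list genes other than the members was called. The cyclase-associated protein gene CAP1, an actin regulator, was lower in summer without reaching 2-fold (-0.71, adjusted p = 0.00693, limma).

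PDE3A hydrolyses cyclic AMP, and its activity rises when meiosis resumes. It was listed at 8.85 (A), 11.4 (B), 11.0 (C) and 7.82 (E) TPM in summer and at 10.4 (A), 8.25 (B), 4.72 (D) and 4.13 (E) TPM in winter. Winter A and B lay within the summer range, and winter D and E lay below it. The mean was 9.76 ± 1.71 TPM in summer and 6.87 ± 2.97 TPM in winter, with a difference of 0.52 (SE 0.30, interval -0.14 to 1.17, adjusted p = 0.210, limma). With the libraries set to their oocyte markers it was -0.59, and with the cumulus and granulosa marker level as a covariate it was -0.0019. The ratio of PDE3A to GPR3 was nearly fixed in summer, between 0.379 and 0.423, and ranged from 0.241 to 0.683 in winter.

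Among 20 cyclic nucleotide phosphodiesterase genes, PDE3A ranked between 5th and 10th in a library and held 4.92 ± 0.913% of their summed TPM in summer and 4.38 ± 1.65% in winter. The cone photoreceptor gene PDE6C was the most abundant in summer (75.5 ± 6.02 TPM), against 33.1 ± 9.85 TPM in winter. Its difference of 1.22 was called (SE 0.21, adjusted p = 0.00575, limma), also with each library left out in turn. PDE8A, which hydrolyses cyclic AMP with high affinity, differed by -0.25 (31.4 ± 3.74 against 37.5 ± 4.65 TPM). PDE5A, which hydrolyses cyclic GMP, was listed at 4.58 to 7.82 TPM in summer and at 8.83 to 12.6 TPM in winter with no overlap, and missed the threshold (difference -0.66, adjusted p = 0.0584, limma). PDE3B, the closest relative of PDE3A, stood at 5.00 ± 0.739 and 4.11 ± 1.63 TPM.

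**Figure D3:**
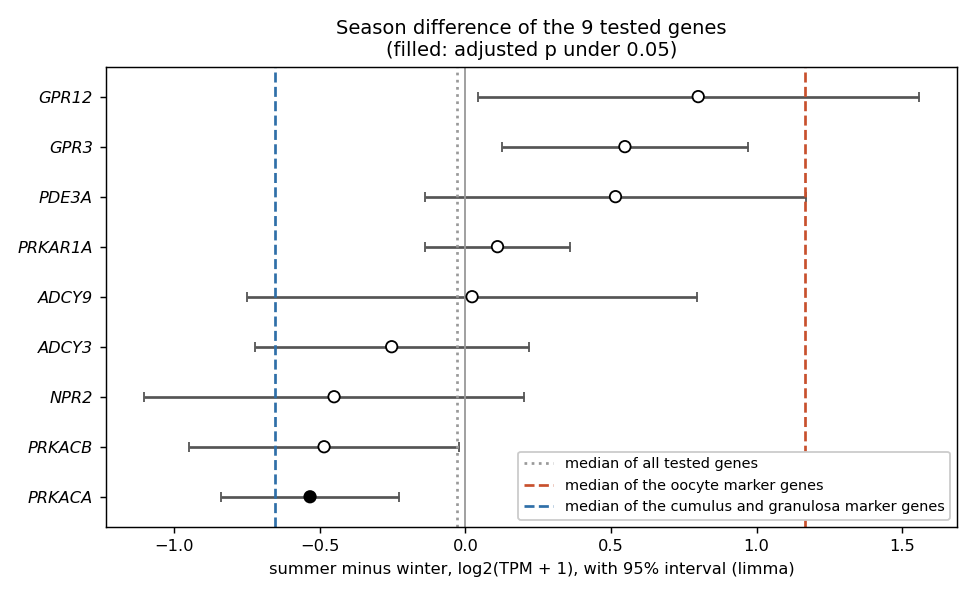
Summer minus winter difference on the log2(TPM + 1) scale of the 9 tested genes, with 95% intervals (limma); the filled point has an adjusted p under 0.05. Dashed lines mark the median of the oocyte markers (1.17) and of the cumulus and granulosa markers (-0.65), and the dotted line the median of all tested genes (-0.03). The differences run from -0.53 for PRKACA to 0.80 for GPR12.

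Protein kinase A is a tetramer of regulatory and catalytic subunits, and cyclic AMP frees the catalytic ones. PRKACA was listed at 34.3 (A), 34.4 (B), 42.6 (C) and 35.2 (E) TPM in summer and at 51.6 (A), 50.6 (B), 59.6 (D) and 51.7 (E) TPM in winter. Every winter library lay above every summer library, and the highest values were those of summer C and winter D. The mean was 36.6 ± 3.99 TPM in summer and 53.4 ± 4.20 TPM in winter, and 1.46 times higher in winter. The difference was -0.53 (SE 0.14, interval -0.84 to -0.23, adjusted p = 0.0199, limma). It ranged from -0.61 to -0.48 with a library left out. The adjusted p passed the threshold in 6 of 8 such fits, and was 0.0619 without summer B and 0.0645 without winter D (limma). With the cumulus and granulosa marker level as a covariate the difference was -0.54 (adjusted p = 0.173, limma), and when the letter entered as a replicate block -0.55 (adjusted p = 0.136, limma). In RefSeq's annotation PRKACA overlaps the small gene SMIM46, which was not analysed here.

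PRKACB, the beta catalytic subunit, also had its lower values in summer. Its levels were 17.0 (A), 16.8 (B), 15.2 (C) and 16.1 (E) TPM in summer and 19.4 (A), 28.1 (B), 30.4 (D) and 17.3 (E) TPM in winter. The summer libraries lay close together, winter B and D were far above them, and winter E was only just above summer A. The difference was -0.49 (SE 0.21, interval -0.95 to -0.02, adjusted p = 0.106, limma). The ratio of PRKACB to PRKACA was 0.449 ± 0.0641 in summer and 0.444 ± 0.105 in winter, so both catalytic genes had nearly equal differences. They are close paralogs, and reads shared between them could have been divided by the mapping.

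PRKAR1A, the type I alpha regulatory subunit, varied little. The gene was listed at 407 (A), 404 (B), 365 (C) and 428 (E) TPM in summer and at 373 (A), 389 (B), 370.0 (D) and 352 (E) TPM in winter. The seasons overlapped, and the difference was 0.11 (SE 0.11, interval -0.14 to 0.36, adjusted p = 0.478, limma). Its percentile among all listed genes lay between 98.6 and 98.8 in the 8 libraries. PRKAR1A made up 71.9 ± 3.28% of the summed TPM of the 4 regulatory subunit genes in summer and 61.9 ± 6.85% in winter, and winter E had the lowest share at 54.4%. PRKAR2B, a type II regulatory subunit, stood at 123 ± 13.7 and 192 ± 52.3 TPM.

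Of 7 ratios between these genes, the one of the regulatory PRKAR1A to the catalytic PRKACA was without overlap between the seasons. The ratio of PRKAR1A to PRKACA was 11.9 (A), 11.7 (B), 8.58 (C) and 12.2 (E) in summer and 7.24 (A), 7.69 (B), 6.21 (D) and 6.81 (E) in winter. All summer libraries lay above all winter libraries, with summer C nearest to them. The mean log2 ratio was 3.42 ± 0.234 in summer and 2.78 ± 0.130 in winter, a difference of 0.64 (p = 0.0286 by two-sided exact permutation, the lowest of 70 splits; adjusted over the 7 ratios, p = 0.20). The difference ranged from 0.59 to 0.76 with a library left out. A ratio within a library hardly depends on that library's scaling, and it shows unequal change, not which gene changed. The other 6 ratios overlapped between the seasons. The difference of PDE3A to ADCY3 was larger (0.77) but so was its spread, with ratios of 0.621 to 1.13 in summer and 0.253 to 0.860 in winter (exact permutation p = 0.143; adjusted over the 7 ratios, p = 0.50). With a library left out the difference of PDE3A to ADCY3 ranged from 0.55 to 1.08, with p up to 0.257 (exact permutation, not adjusted). In 1 of 8 such fits p was under 0.05. That fit was the one without winter A (1.08, exact permutation p = 0.0286, the lowest of 35 splits, not adjusted).

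**Figure D4:**
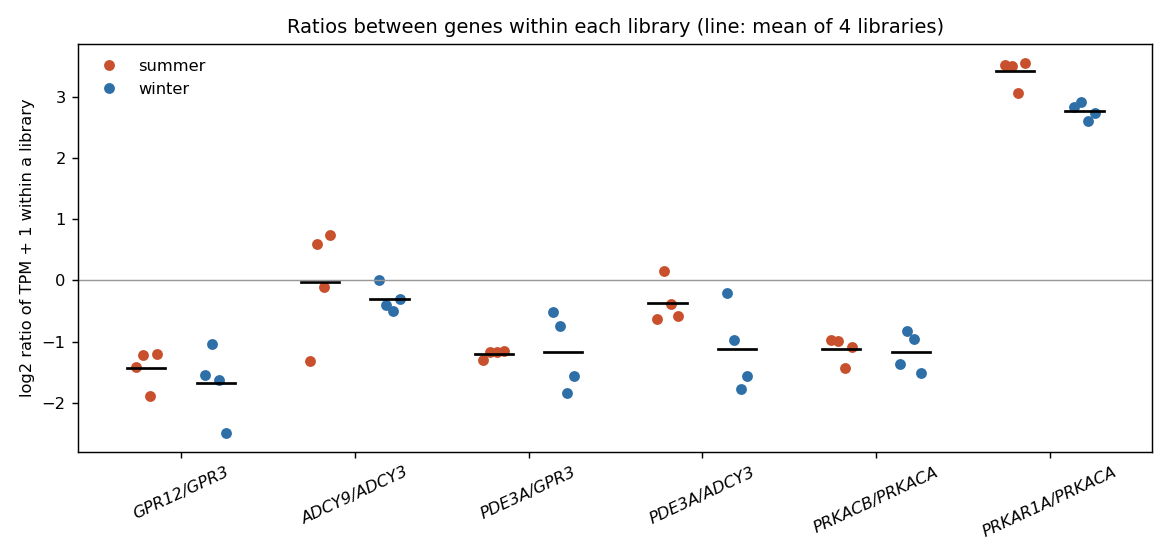
Log2 ratio of TPM + 1 between genes within each library, for 6 pairs (x axis) in summer and winter; each point is a library and the line the mean of 4. PRKAR1A/PRKACA is the pair whose seasons do not overlap (3.42 in summer and 2.78 in winter on average).

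NPR2 is the guanylyl cyclase receptor that makes cyclic GMP in cumulus cells of the mouse. It was listed at 23.5 (A), 31.6 (B), 36.6 (C) and 44.2 (E) TPM in summer and at 47.7 (A), 29.3 (B), 38.4 (D) and 80.5 (E) TPM in winter. The seasons overlapped, and winter E was the highest by far. The difference was -0.45 (SE 0.29, interval -1.10 to 0.20, adjusted p = 0.267, limma), and -0.18 without winter E. Winter E also had the highest share of cumulus and granulosa markers, 3.88% against 0.979% to 1.14% in the other winter libraries. The part of these markers in the NPR2 level was not tested beyond a fit with their mean log2 level as a covariate, in which NPR2 differed by 0.12. NPR2 made up 87.9 ± 9.43% of the summed TPM of the 3 natriuretic peptide receptor genes in summer and 75.1 ± 9.41% in winter.

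NPPC, the precursor of C-type natriuretic peptide, was near the floor of the data. The files list it at 0 in summer A, B and C and in winter B and D. It reached 1.01 TPM in summer E, 2.32 TPM in winter A and 0.0689 TPM in winter E. The gene was not tested, and no fold is given. The 22 cumulus and granulosa markers together held 0.854% to 1.21% of TPM in summer and 0.979% to 3.88% in winter. LHCGR, the luteinizing hormone receptor gene that mural granulosa cells express, was listed at 0 in all summer libraries and in winter D, at 0.364 TPM in winter A, 0.121 TPM in winter B and 7.90 TPM in winter E.

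Of the other genes of the pathway, grouped in 8 lists by function, 103 of 106 were matched in the table by exact symbol and 78 were tested. Among these, 5 were called higher and 3 lower, against the 4.4% and 5.17% of all genes tested, with a median difference of -0.10. At an adjusted p under 0.05 of any size the counts were 16 and 7, against 14.9% and 11.9% of all genes tested. These counts leave out GNAS, which the table holds under suffixed symbols. Its entry GNAS_1 was lower in summer (-0.72, adjusted p = 0.00504, limma). The lists were chosen by function with earlier results of these libraries known.

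In the list of other protein kinase A subunits and inhibitors all 7 genes were tested, 2 were called lower and none higher, and the median difference was -0.60. PKIB, an inhibitor of the catalytic subunit, was listed at 2.56 (A), 4.06 (B), 0.483 (C) and 1.79 (E) TPM in summer and at 22.9 (A), 14.3 (B), 14.5 (D) and 6.44 (E) TPM in winter. No library overlapped, and its difference of -2.29 (SE 0.44, adjusted p = 0.00709, limma) was the largest among the pathway genes that passed the test. However, PKIB passed the expression limit in winter alone, so it entered the test only through the season where it was high. Its call and its missing overlap are therefore described and not read as support. PRKX, a kinase related to the catalytic subunits, had 11.7 ± 2.17 TPM in summer against 27.9 ± 14.0 TPM in winter (difference -1.10, adjusted p = 0.0225, limma; 0.0553 without summer B). It was also under 2-fold without summer A or winter D. PRKAR2B just passed the threshold (-0.60, adjusted p = 0.0499, limma), a result lost without any library but winter B. PKIA, another inhibitor, differed by -0.29 (adjusted p = 0.122, limma).

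Anchoring proteins, which hold the kinase at given sites in a cell, had 1 of 14 called lower and none higher (median -0.03). The gene called was AKAP13, with 8.35 ± 2.51 TPM in summer against 20.1 ± 8.90 TPM in winter (-1.13, adjusted p = 0.0233, limma), which had an adjusted p up to 0.0641 without summer B or winter D and was also under 2-fold without summer A or winter A. AKAP10, which binds both types of regulatory subunit, was higher in summer without reaching 2-fold (0.83, adjusted p = 0.00749, limma). EZR, which encodes ezrin, was the most abundant of the list at 967.8 ± 84.4 and 859 ± 390.3 TPM, followed by AKAP10.

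G protein genes had none called among 10 tested (median 0.01). RGS2, a regulator of G protein signaling, was higher in summer below the 2-fold limit (559.9 ± 137 against 291 ± 68.7 TPM, adjusted p = 0.0118, limma), as was GNAO1 (0.82, adjusted p = 0.0452, limma, lost without any library but summer A and winter B). GNAI2, an inhibitory G protein subunit, was lower (159.6 ± 14.5 against 220.2 ± 11.0 TPM, adjusted p = 0.0174, limma; up to 0.0537 without summer B or winter D). GNB2, the most abundant after RGS2 in summer, differed by -0.08. GNAS, which encodes the stimulatory subunit that couples GPR3 to the cyclases, is split in the table into GNAS_1 and GNAS_2 and so was outside the list, which was matched by symbol. GNAS_1 was listed at 767 (A), 767 (B), 769 (C) and 713 (E) TPM in summer and at 1282 (A), 1166 (B), 1245 (D) and 1292 (E) TPM in winter. Every winter library lay above every summer library, and the difference was -0.72 (SE 0.12, adjusted p = 0.00504, limma). The highest adjusted p with a library left out was 0.0201 (limma). GNAS_2 was near the floor, at 3.08 ± 2.40 and 3.17 ± 0.890 TPM. How reads were divided between the 2 entries is not known.

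Other phosphodiesterase-list genes had PDE6C called higher, while PDE6D, a prenyl-binding subunit (0.87, adjusted p = 0.0123, limma), and PDE6A (0.96, adjusted p = 0.0376, limma; lost without any library but summer A) were higher below the 2-fold limit. Of the 14 genes tested, 0 had an adjusted p under 0.05 in the lower direction. Cyclic GMP genes had none called among 7. GUCY1B1, the beta subunit of the nitric oxide receptor, was lower below 2-fold (14.4 ± 1.94 against 24.7 ± 6.53 TPM, adjusted p = 0.0402, limma; lost without any library but winter A). IMPDH2 and IMPDH1, whose enzymes serve guanine nucleotide synthesis, differed by -0.12 and -0.03.

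Cyclic AMP effectors other than protein kinase A had 1 of 11 called higher, RAPGEF3, which encodes the exchange factor EPAC1 (11.7 ± 1.26 against 5.40 ± 1.98 TPM, difference 1.04, adjusted p = 0.0180, limma; 0.0512 without summer C, and under 2-fold without winter D). Its relative RAPGEF4 (0.77, adjusted p = 0.0309, limma, lost without B or E of summer, or D or E of winter) and the coactivator gene CRTC2 (137 ± 20.3 against 81.1 ± 10.9 TPM, adjusted p = 0.00774, limma) were higher below 2-fold. CREBBP, second in abundance, differed by -0.20. Targets on which protein kinase A acts during arrest, or that act with them, had 3 of 8 called higher, WEE2, CCNB2 and CDC25C (differences 1.08, 1.06 and 1.07), and 7 of 8 at an adjusted p under 0.05 of any size. Of all genes tested 4.4% were called higher, and 14.9% were higher at any size. The most abundant of these were WEE2, an oocyte kinase, at 700.5 ± 74.6 and 352 ± 142 TPM, and CCNB1. Without winter E the 3 genes fell short of 2-fold. The median of this list was 0.85, between those of GPR12 (0.80) and of the oocyte markers (1.17).

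**Figure D5:**
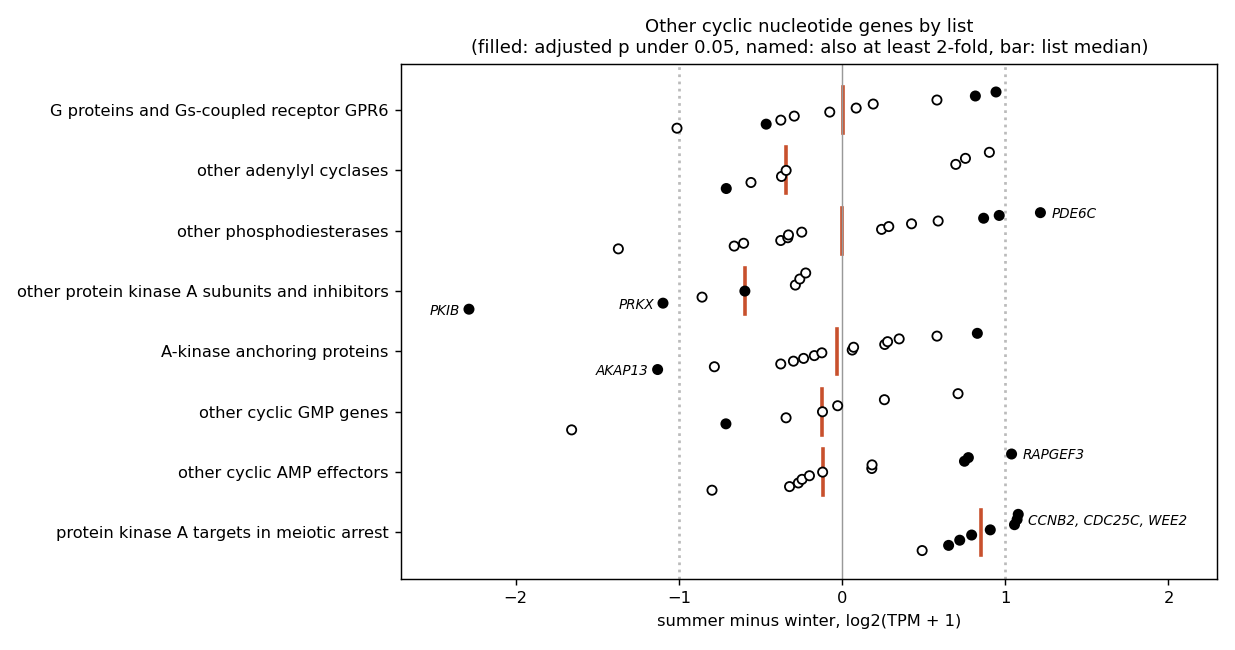
Summer minus winter differences on the log2(TPM + 1) scale (x axis) of 78 other cyclic nucleotide genes in 8 lists (y axis); filled points have an adjusted p under 0.05 (limma), named genes are also at least 2-fold apart (dotted lines), and bars are list medians. PKIB has the lowest value (-2.29), and the targets list has the highest median (0.85).

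Genes with the most similar course over the 8 libraries were found for each of the 9 tested genes, by the mean absolute difference of log2 values after centring each gene on its mean. PRKACA had the closest match of all, PCNP (68.0 ± 6.84 TPM in summer and 99.2 ± 4.10 TPM in winter), which departed from it by 0.03 per library, followed by WDR55 (0.04). PRKAR1A was nearest to RPA2 and SAP18 (both 0.05), and PDE3A to GCA (0.06) and ARID5A (0.07). PRKACB was nearest to CMPK1 and ZPR1 (both 0.07), ADCY9 to ABLIM1 (0.07) and MLEC (0.10), and ADCY3 to CHPF2 (0.07) and ZNF696 (0.08). GPR3 was nearest to OCEL1 (0.08) and COPS4 (0.10), GPR12 to GPR19 (0.09) and MCM4 (0.13), and NPR2 to MAP3K5 and TMEM229B (both 0.10). None of the members was among these nearest genes of another member.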

How the data were processed

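RNA was extracted from pooled denuded oocytes, polyadenylated RNA was sequenced as paired reads, and the authors deposited TPM per gene, each library summing to 1000000. The study's methods name CLC Genomics Workbench with trimmed-mean scaling, whereas the submitters' processing notes list bcl2fastq, Bowtie2 2.2.2, DESeq2 and ARS-UCD1.2. Which of these made the table was not settled, and the sources used here do not give strand use. No coordinates are printed, because RefSeq's table (ARS-UCD2.0) is of another build, and it served only to find overlapping genes. It matched all 10 members by symbol.

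Sample titles gave the groups. zFPKM was computed per library, and genes above -3 in all 4 libraries of a season entered a linear model of log2(TPM + 1) on season alone, fitted in limma 3.58.1 (R 4.3.3; empirical Bayes moderation with a mean-variance trend). The script was tested on simulated data. Ratios and marker shares were compared by exact permutation. Members and lists were chosen with earlier results of these data known. Named genes were the members and the 2 most abundant and all called genes of each pathway list. The 2 most abundant markers and the 2 nearest genes by course were named too. PDE5A, PDE3B, PDE8A, ADCY1, PKIA, IMPDH1, GNAO1, GNAI2, GUCY1B1, RAPGEF4, PDE6A, PDE6D and CRTC2 were named after values were seen or for their role. So were LHCGR, GPR6, GNAS_1, GNAS_2, CENPO, SMIM46, OVGP1, PECAM1, CDH5 and EMCN. ADCY2, ADCY5, ADCY7, PRKAR2A, AKAP11, KDR, CLDN5 and ROBO4 were also named after values were seen. Of the lists, PDE8B, AKAP2 and BCL2L10 were not analysed here. Alternatives were other pseudocounts, filters, scalings, weights and moderation, a block for the letter, a covariate for granulosa markers, centring on oocyte genes, and libraries left out.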

Additional observations from a re-analysis of the deposited data

Results flagged for a closer look

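In each season the highest or lowest library was compared with the nearest of the others, over 48 groups of 4 libraries, and 7 stood apart. For independent groups of normally spread values, chance alone sets apart about 1 in 20. The groups here share libraries, NPPC is mostly at 0, and a flagged ratio holds PRKACA again. The 7 are therefore not compared with that rate. PRKACA stood apart in both seasons, with summer C at 42.6 TPM against 35.2 TPM for the nearest summer library and winter D at 59.6 TPM against 51.7 TPM. Both lie on the high side of their season, and the seasons still did not overlap. The log2 ratio of PRKAR1A to PRKACA was 3.07 in summer C, below 3.51 for the nearest summer library. NPPC stood at 1.01 TPM in summer E where the other summer libraries were at 0, and at 2.32 TPM in winter A where the nearest was 0.0689 TPM. Cumulus and granulosa markers held 3.88% of TPM in winter E against 1.14% in the nearest winter library; winter E is also the library with the highest NPR2. Endothelial markers held 0.00466% in summer C, against 0.00280% in the nearest library. PECAM1, CDH5 and EMCN were listed at 0 in all summer libraries. The other markers of the list had their highest summer value in summer C. These were TEK (22.3 TPM), VWF (12.2 TPM), KDR (9.02 TPM), ROBO4 (1.76 TPM) and CLDN5 (1.37 TPM).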

How the results depend on the processing

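No member was called with other pseudocounts, filters, weights or moderation, with quantile normalization or TMM factors, with the covariate below, or with a library left out. In the main fit without the 2-fold limit 1 member was lower, and 16 other pathway genes were higher and 7 lower. The other pathway genes numbered 13 higher and 5 lower without a filter on low values. They numbered 21 and 7 after quantile normalization, and 17 and 10 with TMM factors. At any size 2 members (GPR3 and GPR12) were higher and 1 lower after quantile normalization. Over all 13379 genes 2336 were then higher and 1637 lower. With library weights 3 members were higher and 2 lower, beside 13 other pathway genes lower. Over all genes 3022 were then higher and 2345 lower, so calls rose in general. With the cumulus and granulosa score as a covariate 0 members were lower, and of the other genes 0 were called in either direction, with 0 higher and 1 lower at any size (of all 13379 genes 8 were called higher and 133 lower). Centred on the oocyte genes, where the median of all genes became -1.13 from -0.03, 5 members were called lower and 6 at any size, and of the other genes 0 were higher and 44 lower (0 and 53 at any size). All members with a positive difference then have a negative one, since the setting shifts all genes of a library alike. They are GPR3 (-0.56), GPR12 (-0.30), PDE3A (-0.59), ADCY9 (-1.08) and PRKAR1A (-0.99). Over all genes 1 was called higher and 7548 lower. Without both libraries of letter A 8 other genes were called higher. With a library left out in turn, members called stayed at 0 in both directions, those at any size ranged from 0 to 1 higher and from 0 to 1 lower, and the other genes from 2 to 7 higher and 2 to 4 lower (12 to 20 and 3 to 9 at any size), with 2 higher without winter E, and 3 and 4 lower at any size without summer B and winter D. The member lost is PRKACA (without summer B or winter D) and the one gained is GPR3 (without summer E).

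Letters A, B and E occur in both seasons. Deviations from the season means correlated by 0.05 (A), 0.14 (B) and 0.20 (E) between same-letter libraries over 13379 genes, each library best with its own letter, a hint of pairing from the data. The same cows were aspirated in both seasons and the methods speak of corresponding replicates, but the sources used here do not tie letters to cows, and C and D have no partner. With the letter as a replicate block 0 members were lower at any size (PRKACA -0.55, adjusted p = 0.136, limma), and of the other genes 1 was called lower, with 4 higher and 1 lower at any size (of all genes 179 were called higher and 296 lower). Depth is not kept by TPM, so precision at low TPM (NPPC, GPR12, PKIB) is unknown.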
